A study of Mus musculus with 2 samples.

Results

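The tendon genes Scx, Tnmd, Mkx, Thbs1, Thbs2, Thbs3, Thbs4 and Tnc were followed through single-cell transcriptomes of the mouse embryonic limb. They were taken by gene symbol, and these 8 of the 32285 genes listed in each count matrix were all found in both. The study profiled limb skeletal muscle tissue of wild-type (WT) C57Bl/6 mouse embryos of 2 ages named in days of gestation, E12.5 and the later E15.5, by 1 droplet library (10x Genomics) per age, and age is the only difference between the groups in the labels. Forelimb and hindlimb material was combined, and the labels do not state how many embryos, or of which sex, went into a library. The comparison asks in which limb cells each tendon gene was read at the earlier age, in which at the later age, and which of the genes were read in the same cells.

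Tendons join muscle to bone and arise from limb mesenchyme. Scx encodes scleraxis, a basic helix-loop-helix transcription factor that marks tendon progenitors and binds E-box sequences, and Mkx encodes Mohawk, a homeodomain transcription factor needed for normal tendon collagen. Tnmd encodes tenomodulin, a membrane glycoprotein of maturing tendon cells that depends on scleraxis in vivo. The thrombospondins and tenascin-C, encoded by Thbs1 to Thbs4 and Tnc, are secreted matrix proteins that bind other matrix components and cell surface receptors, and Thbs4 and Tnc are prominent where muscle meets tendon.

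After filtering, the E12.5 library kept 11001 cells (median 2321 UMIs) and the E15.5 library 3916 cells (median 9281.5 UMIs). A UMI (unique molecular identifier) counts 1 captured RNA molecule. Cells were clustered in each library without the 8 genes, and clusters were named from markers that are none of the 8. Cells of clusters named tenocyte-like, connective tissue-like, chondrocyte-like or joint-like, and of clusters without a name, are called mesenchymal here: 10135 of the E12.5 cells (92.1%) and 2728 of the E15.5 cells (69.7%). Although the tissue is labelled as muscle, 594 of the E12.5 cells (5.40%) and 386 of the E15.5 cells (9.86%) were in muscle-like clusters. At E15.5, 367 cells (9.37%) in shallow clusters, of low UMI totals, were left out. The libraries shared 17 cell barcodes, 0.294% of those deposited at E15.5. Levels are CPM, a gene's UMIs summed over a class of cells and scaled to a fixed total. Shares of cells are given at an equal depth of 2000 UMIs per cell, drawn at random. With 1 library per age nothing could be tested. The 95% intervals cover counting error only and do not speak to differences between embryos or dissections, and fewer cells of a type and less RNA per cell cannot be told apart in a summed level.

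The genes lie apart in the genome (GENCODE vM21, build GRCm38): Scx on chromosome 15 (76457452 to 76459458, plus strand), Tnmd on X (133850980 to 133865577, plus), Mkx on 18 (6934518 to 7004780, minus), Thbs1 on 2 (118111876 to 118127133, plus), Thbs2 on 17 (14665500 to 14694235, minus), Thbs3 on 3 (89215180 to 89226837, plus), Thbs4 on 13 (92751590 to 92794818, minus) and Tnc on 4 (63959785 to 64047015, minus). Scx overlaps Bop1, a ribosome biogenesis gene on the opposite strand, and Thbs3 overlaps Mtx1 on the opposite strand. Thbs1 and Tnc each overlap a non-coding gene of the opposite strand (Gm29233 and 8030451A03Rik), and Mkx overlaps AC148004.2 on its own strand. Whether the counting used strand is not given in the sources used here, so reads of these overlapping pairs may not be separable.

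In mesenchymal cells 4 of the 8 genes differed at least 2-fold between the ages, which 27.6% of all genes tested did, and the 250 bases before the start of each of them are printed from RefSeq (GRCm38.p6), 5′ to 3′ in the direction of the gene, because scleraxis binds E-boxes. Capitals mark the E-box letters CANNTG, which read the same on both strands; RefSeq entries were matched for 5 of the 8 genes.
Tnmd (chrX:133850758-133851007, plus strand): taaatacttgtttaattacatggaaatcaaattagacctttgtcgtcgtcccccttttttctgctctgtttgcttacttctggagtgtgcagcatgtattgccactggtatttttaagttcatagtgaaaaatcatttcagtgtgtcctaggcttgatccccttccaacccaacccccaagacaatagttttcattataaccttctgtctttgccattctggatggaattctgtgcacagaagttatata
Thbs4 (chr13:92794819-92795068, minus strand): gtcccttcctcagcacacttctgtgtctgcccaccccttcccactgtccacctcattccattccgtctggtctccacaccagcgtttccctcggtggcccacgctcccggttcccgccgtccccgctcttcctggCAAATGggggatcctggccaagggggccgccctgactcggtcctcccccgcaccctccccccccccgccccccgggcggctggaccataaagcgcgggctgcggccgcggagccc
Thbs2 (chr17:14694263-14694512, minus strand): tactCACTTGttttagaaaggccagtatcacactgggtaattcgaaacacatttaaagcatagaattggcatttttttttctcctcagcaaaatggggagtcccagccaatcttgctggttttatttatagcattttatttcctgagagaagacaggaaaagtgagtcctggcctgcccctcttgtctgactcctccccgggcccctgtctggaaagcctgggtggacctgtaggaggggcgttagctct
Tnc (chr4:64047016-64047265, minus strand): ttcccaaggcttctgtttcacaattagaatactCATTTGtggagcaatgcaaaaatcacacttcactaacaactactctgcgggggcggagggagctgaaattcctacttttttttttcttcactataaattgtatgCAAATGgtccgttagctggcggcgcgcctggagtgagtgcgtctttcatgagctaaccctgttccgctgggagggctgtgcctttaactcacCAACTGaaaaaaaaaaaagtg
The Tnmd window held 0 matches, which says only that these letters are not in this window. Thbs4 held 1 match (CAAATG, beginning 115 bases before the start), Thbs2 held 1 (CACTTG, 246 bases before) and the printed Tnc window held 3. A second Tnc start in RefSeq, with the window chr4:64046937-64047186, is not printed and held 2 matches (CAAATG and CAACTG). Of 32851 mouse promoter windows of this length, 66.2% held at least 1 match, so a match is common and marks no binding site by itself.

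In mesenchymal cells Tnmd, Thbs4 and Thbs2 were at least 2-fold higher at E15.5, and Tnc was at least 2-fold lower. Scx and Mkx, the transcription factors, were already read at E12.5 at levels above those of E15.5. These 3 higher members compare with 8.72% of 12770 genes with enough UMIs that were at least 2-fold higher, and the 1 lower member with 18.9% that were at least 2-fold lower. The median gene had a log2 ratio (E15.5 over E12.5) of -0.34, so that ratios relative to the median gene are larger by that amount.

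Scx had 1755 UMIs and 71.4 CPM in mesenchymal cells at E12.5 against 1222 UMIs and 45.2 CPM at E15.5 (log2 ratio -0.66, interval -0.77 to -0.55), which was -0.32 relative to the median gene. At equal depth, 11.5% of mesenchymal cells carried a Scx UMI at E12.5 against 6.29% at E15.5. Without thinning the shares were 13.6% and 13.0%, in libraries whose mesenchymal cells had medians of 2255 and 9038.5 UMIs. Scx was thus read in fewer cells at the later age, once depth was equal, while its summed level was lower by less than 2-fold. For Mkx the levels were 18.8 and 14.0 CPM (log2 ratio -0.42, -0.62 to -0.22), with -0.09 relative to the median gene. Its share of cells was 3.54% and 2.94%, a difference of -0.60 percentage points whose interval (-1.35 to 0.23) includes 0.

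Tnmd, the gene of maturing tendon cells, had 74 UMIs in all mesenchymal cells at E12.5 (3.01 CPM) and 3448 at E15.5 (128 CPM). This was a 42.4-fold difference, a log2 ratio of 5.41 (5.07 to 5.76). Its share of cells was 0.633% at E12.5 against 7.90% at E15.5, or 0.671% and 13.3% without thinning. At E12.5 the Tnmd level outside the mesenchymal cells was 1.10 CPM from 4 UMIs (0.301 to 2.82), an interval that overlaps the one in mesenchyme (2.36 to 3.78), and E12.5 values of Tnmd rest on few molecules.

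Among the thrombospondins, which form 2 groups by protein structure (the trimers Thbs1 and Thbs2, and the pentamers Thbs3 and Thbs4), each group held 1 gene with a large difference. Thbs4 went from 252 UMIs (10.3 CPM) to 2188 UMIs (81.0 CPM), a log2 ratio of 2.98 (2.79 to 3.18). Thbs2 went from 421 UMIs (17.1 CPM) to 3116 UMIs (115 CPM), a log2 ratio of 2.75 (2.60 to 2.90). Thbs3 had 23.4 and 42.1 CPM, a log2 ratio of 0.85 (0.71 to 1.00) that passed 2-fold only relative to the median gene (1.19). Thbs1 had 153 and 182 CPM, a log2 ratio of 0.26 (0.20 to 0.32) in mesenchymal cells that turned to -0.08 over all kept cells. Tnc, whose product modulates cell adhesion, had 3318 UMIs (135 CPM) at E12.5 against 1468 UMIs (54.3 CPM) at E15.5. Its log2 ratio was -1.31 (-1.40 to -1.22), and its share of cells was 19.5% and 8.75%. Relative to the median gene the Tnc ratio was -0.98, just short of 2-fold.

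**Figure D1:**
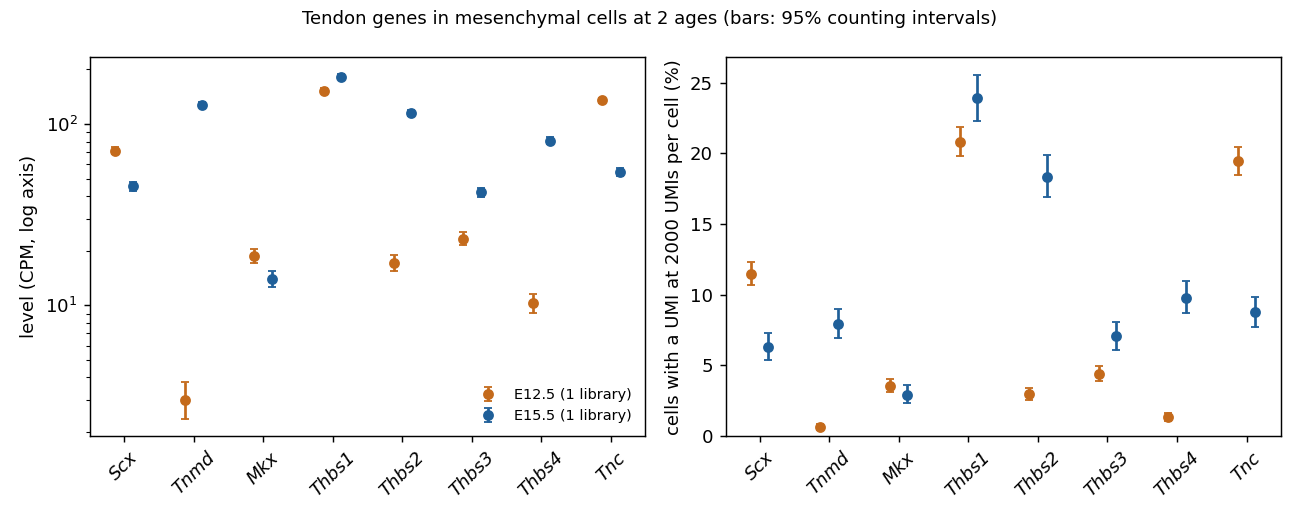
Each tendon gene in mesenchymal cells of the E12.5 (orange) and E15.5 (blue) library: summed level in CPM on a log axis (left) and percent of cells with a UMI at 2000 UMIs per cell (right), with 95% counting intervals. Tnmd, Thbs2 and Thbs4 sit higher at E15.5, Tnc and Scx lower, and the Mkx shares overlap.

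A tenocyte-like cluster was found at E15.5 only: 145 cells (3.70% of kept cells), with Cilp, Fmod, Kera and C1qtnf3, genes of tendon and cartilage matrix, among its leading genes. Of the 10 tenocyte markers, Comp and Angptl7 were at 1 UMI each in these cells. Haemoglobin genes took 0.740% of its UMIs and 0.148% in the other mesenchymal cells, and their part in the values was not tested. At E12.5 no cluster reached the naming rule in the main clustering or in any of 8 other clusterings; there Fmod was at 10.9 CPM and Kera at 42.8 CPM over all mesenchymal cells, against 260 and 292 CPM in the E15.5 tenocyte-like cells. The markers did not all go this way: Fibin was at 252 CPM in the E12.5 mesenchymal cells and 282 CPM in the tenocyte-like cells, and Chad (7.97 and 2.65 CPM), Comp (5.33 and 0.663 CPM) and Angptl7 (6.10 and 0.663 CPM) were lower in the latter. Cpxm2 was at 3.31 CPM in the tenocyte-like cells, below the 9.57 CPM of the other E15.5 mesenchymal cells.

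Scx, Tnmd, Mkx and Thbs4 were concentrated in the tenocyte-like cells at E15.5, Tnc less so, and Thbs1, Thbs2 and Thbs3 differed by less than 2-fold. Of the 8 genes, 5 were at least 2-fold higher there than in the other mesenchymal cells, where 2.36% of 11146 genes were; the cluster was built from other genes of the same cells, so these are descriptions. Tnmd was at 1747 CPM (1681 to 1815) against 31.8 CPM, 54.9-fold, and Scx at 540 CPM (504 to 578) against 16.0 CPM, 33.8-fold. Mkx was at 92.1 CPM against 9.37 CPM, 9.83-fold, and Thbs4 at 475 CPM against 57.7 CPM, 8.24-fold. These cells held 73.4% of all Tnmd UMIs of the library and 59.2% of the Scx UMIs, but 34.9% for Mkx and 32.3% for Thbs4, so much of the Mkx and Thbs4 RNA lay in other cells. Tnc was at 130 CPM against 49.9 CPM (2.60-fold), and the cells held 10.6% of its UMIs.

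The remaining thrombospondins did not single out these cells. Thbs2 was at 197 CPM against 110 CPM, a log2 ratio of 0.84. Thbs1 was at 198 CPM against 182 CPM, a log2 ratio of 0.13 whose interval (-0.05 to 0.30) includes 0. Thbs3 was the only one of the 8 that was lower in the tenocyte-like cells, at 23.9 CPM against 43.2 CPM, a log2 ratio of -0.86 (-1.38 to -0.38). At equal depth 78.3% of tenocyte-like cells carried a Tnmd UMI, 65.0% a Scx UMI, 47.6% a Thbs4 UMI and 15.4% a Mkx UMI. Over 9 clusterings with 121 to 152 tenocyte-like cells, Scx ranged from 503 to 564 CPM and Tnmd from 1659 to 1861 CPM.

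**Figure D2:**
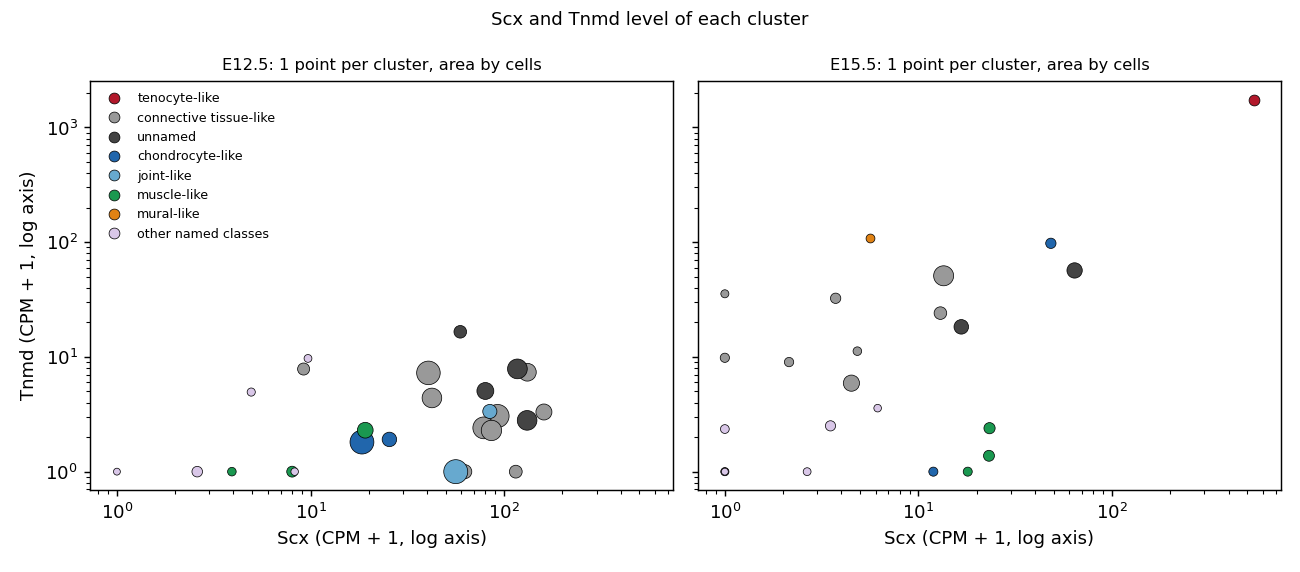
Summed Scx (x) and Tnmd (y) level of each cluster, in CPM plus 1 on log axes, at E12.5 (left) and E15.5 (right); point area grows with the number of cells and colour gives the cell class. At E12.5 Scx spreads over many clusters with little Tnmd, and at E15.5 the tenocyte-like cluster (red) lies at the top right, the mural-like cluster (orange) has Tnmd with little Scx, and the muscle-like clusters (green) have Scx with little Tnmd.

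At E12.5 Scx was spread over the mesenchyme. Among 18 mesenchymal clusters its highest levels were 159 CPM (134 to 188) in a cluster led by Hand2os1 and Tbx3os1, 131 CPM in a cluster led by Dcn and Kera, and 130 CPM in a cluster led by Dcc and Tbx5 that also had Fmod and Col12a1 among its leading genes. The intervals of these 3 overlap. Its lowest level was 8.21 CPM, in a cluster led by Calb2, Lum and histone genes. Mkx and Thbs4 were narrower and were led by the same pair of clusters: Mkx was at 72.0 CPM in the Dcc cluster and 54.5 CPM in the Dcn and Kera cluster, and Thbs4 at 54.9 and 74.5 CPM. Tnc was highest, at 391 CPM, in a cluster with Col6a5 among its leading genes, followed by 269 CPM in the Dcc cluster and 229 CPM in the Dcn and Kera cluster, and lowest at 29.4 CPM in the joint-like cluster led by Gdf5. Thbs1 was highest at 412 CPM in the chondrocyte-like cluster led by Matn1 and Hapln1, so its pattern was unlike that of Scx. The Col6a5 cluster also led Thbs2 (64.2 CPM) and Thbs3 (46.7 CPM), and it led Tnmd at 15.6 CPM, which came from 8 UMIs.

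At E15.5 the levels of Scx outside the tenocyte-like cluster were far lower. The next cluster, at 63.0 CPM, was an unnamed one led by the haemoglobin genes Hba-x and Hbb-y. Mia, Sox9 and Gdf5 were also among its leading genes. A chondrocyte-like cluster led by Col9a3 and Col2a1 followed at 47.3 CPM. Among the 13 mesenchymal clusters the same pair followed for Tnmd, at 55.7 and 96.8 CPM, while the chondrocyte-like cluster led by Matn1 had 0 Tnmd UMIs. Close to the unnamed cluster (46.8 to 65.9) was a connective tissue-like cluster led by Fst and Sfrp4, at 50.0 CPM (44.6 to 55.8). It held 312 of the 812 Tnmd UMIs of mesenchymal cells outside the tenocyte-like cluster. Outside the mesenchyme the mural-like cluster had Tnmd at 107 CPM (88.9 to 129). This interval overlaps that of the chondrocyte-like cluster of the pair (81.0 to 115). The unnamed cluster also came next for Mkx, at 43.5 CPM. Thbs4 departed from this order: after the tenocyte-like cells it was highest at 194 CPM in a connective tissue-like cluster with Pi16 and Tppp3 among its leading genes, and it was at 117 CPM in a connective tissue-like cluster led by Aldh1a3 and Cntfr. Thbs1 was highest, at 511 CPM, in a cluster led by Ch25h and Cxcl14, Thbs2 at 240 CPM in one led by Aldh1a2 and Cxcl13, and Thbs3 at 119 CPM in the Pi16 cluster. Tnc was highest, at 194 CPM, in the chondrocyte-like cluster led by Matn1.

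Within the connective tissue-like class the genes went opposite ways between the ages. This class was made of different clusters at each age, led by genes such as Calb2, Twist2 and Hand2os1 in the E12.5 library and by Fst, Aldh1a3 and Dpt in the E15.5 library. Scx was at 76.3 CPM at E12.5 against 7.63 CPM at E15.5 (log2 ratio -3.32, -3.59 to -3.07), and Mkx at 14.1 and 2.10 CPM (-2.75). Over the same cells Thbs4 was at 10.5 and 75.1 CPM (2.84), Thbs2 at 20.4 and 112 CPM (2.46), Thbs1 at 92.6 and 202 CPM (1.12) and Tnmd at 3.16 and 26.9 CPM (3.09). The Scx and Mkx levels of this class were thus 10.0-fold and 6.71-fold lower at E15.5. The ages were not divided alike, however. At E15.5 the tenocyte-like cells, with 815 of 1222 mesenchymal Scx UMIs and 139 of 378 Mkx UMIs, were kept out of this class. At E12.5 no tenocyte-like cluster was named. There the class held the Dcn and Kera cluster (Scx 131 CPM, Mkx 54.5 CPM). Over all mesenchymal cells the log2 ratios were -0.66 for Scx and -0.42 for Mkx. In the chondrocyte-like class Scx and Mkx went the other way. Scx was at 19.6 CPM at E12.5 and 35.7 CPM at E15.5 (log2 ratio 0.86, 0.37 to 1.36). Mkx was at 10.1 and 24.8 CPM (1.30, 0.65 to 1.96). This rested on 1 E15.5 cluster, led by Col9a3 and Col2a1, with 65 of 72 Scx and 45 of 50 Mkx UMIs. The one led by Matn1 had Scx at 10.9 CPM and Mkx at 7.81 CPM. These were not above the E12.5 chondrocyte-like clusters (Scx 17.4 and 24.5 CPM, Mkx 10.1 and 10.0 CPM). Over the whole chondrocyte-like class Thbs1 was lower at E15.5 (364 and 179 CPM, log2 ratio -1.03, -1.20 to -0.86), while Thbs2 was at 3.92 and 81.4 CPM. Tnmd was at 0.841 CPM, from 3 UMIs, and 66.0 CPM. All 133 E15.5 Tnmd UMIs of the class were in the Col9a3 cluster.

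Co-detection was read at 2000 UMIs per cell, as the number of cells with UMIs of both genes over the number expected from the product of their shares. A ratio above 1 over mixed cells also arises when both genes are read in the same cell type. At E12.5 Scx and Mkx were read together in 38 of 6164 mesenchymal cells (25.1 expected, ratio 1.52), and Mkx and Thbs4 in 16 (2.94 expected, ratio 5.45). Scx and Thbs4 shared 22 cells (ratio 2.30) and Thbs4 and Tnc 37 (2.29). Each of these 3 Thbs4 pairs was found in over 2 times the expected number of cells. Of the 16 cells with Mkx and Thbs4, 3 lay in the Dcc cluster (1.66 expected within it), 7 in the Dcn and Kera cluster (3.27 expected) and 6 in the other mesenchymal clusters (1.23 expected). Scx and Thbs1 shared 128 cells where 147 were expected (ratio 0.868). These counts come from 1 thinning draw.

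Scx and Tnmd were seldom together in the E12.5 cells and often together in the E15.5 cells. At E12.5, where Tnmd was read in only 39 cells, 10 cells held both (4.49 expected, ratio 2.23). Over 20 further thinning draws the ratio ranged from 1.22 to 2.74. Their mean ratio was 1.75 and their median 8 cells with both, below the draw given. At E15.5, 85 of 2720 mesenchymal cells held both (13.5 expected, ratio 6.29). That draw lay at the high end, since 20 further draws gave 64 to 80 cells and a mean ratio of 5.91. Tnmd was read in 49.7% of Scx-positive cells and in 5.10% of the others at E15.5, against 1.41% of Scx-positive cells at E12.5. In the other direction, 39.5% of Tnmd-positive cells carried Scx at E15.5, and 10 of 39 (25.6%) did at E12.5.

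Other E15.5 pairs followed the same cells. Scx and Mkx had a ratio of 4.37 (22 cells), Tnmd and Mkx 4.27 (27 cells), Tnmd and Thbs4 3.52 (74 cells) and Scx and Thbs4 2.81 (47 cells). Inside the 143 tenocyte-like cells deep enough to thin, Scx and Tnmd were together in 72 cells where 72.8 were expected (ratio 0.988), so the ratio was near 1 within the cluster. In the other 2577 mesenchymal cells Scx and Tnmd still shared 13 cells (3.12 expected) and Scx and Mkx 11 (1.76 expected), but Scx and Thbs4 shared 3 (5.99 expected) and Mkx and Thbs4 1 (4.46 expected). Over all E15.5 mesenchymal cells Mkx and Thbs4 shared 15 cells where 7.82 were expected (ratio 1.92), 14 of them tenocyte-like, against the ratio of 5.45 at E12.5. At least 3 of the 8 genes were read in 2.01% of mesenchymal cells at E12.5, in 3.10% of the other mesenchymal cells at E15.5 and in 61.5% (88 of 143) of the tenocyte-like cells.

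**Figure D3:**
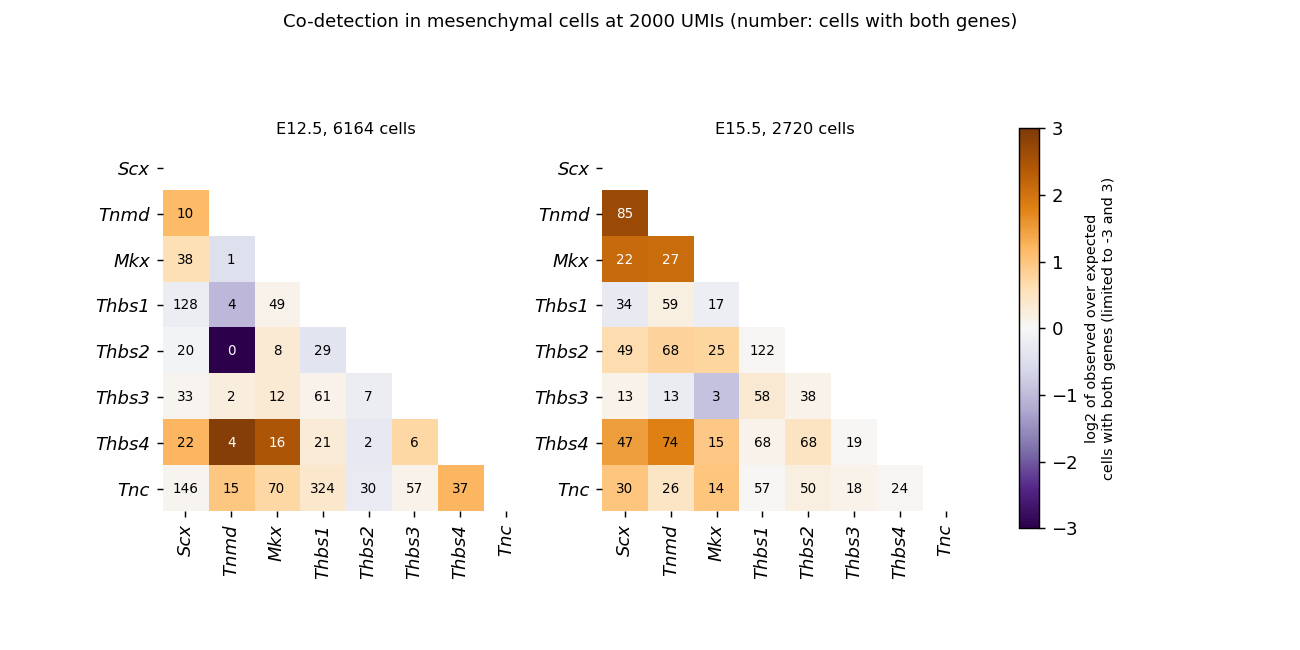
Co-detection of each pair of tendon genes in mesenchymal cells at 2000 UMIs per cell, at E12.5 (left) and E15.5 (right); colour is log2 of observed over expected cells with both genes, limited to -3 and 3, and the number is the count of cells with both. The Scx, Tnmd and Mkx pairs are stronger at E15.5, with 85, 22 and 27 cells; Tnmd squares at E12.5 rest on at most 15 cells.

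Sox9, the chondrocyte transcription factor that is also read in progenitors of tendon attachments, was compared in the same way. At E12.5 Scx and Sox9 were together in 417 cells where 417 were expected (ratio 1.00). At E15.5 they were together in 23 cells where 32.6 were expected (ratio 0.705), and Thbs4 and Sox9 in 14 where 50.8 were expected (ratio 0.276). In both libraries cells with a UMI of Mki67 or Top2a, genes of dividing cells, were counted. Scx-positive and Scx-negative mesenchymal cells had shares of 51.9% and 53.3% at E12.5. At E15.5 they had 35.7% and 23.0% (difference 12.6 percentage points, 5.65 to 20.2). Within the tenocyte-like cells the difference was 14.7 points (-1.59 to 28.8) and within the other mesenchymal cells 9.04 points (-0.41 to 20.1), both with intervals that include 0, and within connective tissue-like cells it was -0.51 points (-13.2 to 19.0). The tenocyte-like cells had 33.6% against 23.3% in the other mesenchymal cells. Thbs4-positive cells at E15.5 had 34.2% against 22.7% in the rest (difference 11.5 points, 5.81 to 17.6), with 11.7 points (-3.72 to 26.5) within the tenocyte-like cells and 9.79 points (3.43 to 16.8) within the other mesenchymal cells.

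Outside the mesenchyme, Scx was read in muscle-like cells at both ages with hardly any Tnmd. Scx was at 13.5 CPM (33 UMIs, 9.27 to 18.9) at E12.5 and 21.2 CPM (126 UMIs, 17.7 to 25.3) at E15.5. Endothelial-like cells, which should lack tendon genes, had 1.60 CPM (1 UMI) and 2.51 CPM (5 UMIs), so the muscle-like level was higher by a log2 ratio of 3.07 (0.49 to 8.42) and 3.08 (1.82 to 4.73). At equal depth 2.57% and 3.96% of muscle-like cells carried a Scx UMI, against 0 of 119 and 0 of 120 endothelial-like cells, which allows shares of up to 2.52% and 2.50% by 3 counts of the total. The Clopper-Pearson upper limits of these shares, 3.05% and 3.03%, lie above the E12.5 share of muscle-like cells, so that the shares were not separable at E12.5. Without thinning the E15.5 shares were 24.4% of muscle-like cells (median 14272 UMIs) and 2.50% of endothelial-like cells (median 13033.5 UMIs). The ratio of Scx to Tnmd UMIs in muscle-like cells at E15.5 was 31.5, against 0.309 in tenocyte-like cells and 0.501 in the other mesenchymal cells, the classes that held most of both RNAs. At E12.5 the ratio was 16.5 in muscle-like cells, from 2 Tnmd UMIs, and 23.7 in mesenchymal cells, so the excess of Scx over Tnmd did not set muscle apart from mesenchyme at that age. Tenocyte markers summed to 93.8 CPM in muscle-like cells at E15.5 with only Chad of the 10 at 0, against 7.04 CPM in endothelial-like and 1244 CPM in tenocyte-like cells, and their part in the Scx value was not tested. Bop1, the gene on the other strand, was at 19.5 CPM in muscle-like and 17.6 CPM in endothelial-like cells at E15.5, a difference smaller than that of Scx. At E12.5 Bop1 was at 23.7 and 28.8 CPM in the same classes. Over the 9 clusterings the E15.5 muscle-like level of Scx ranged from 20.8 to 22.4 CPM. By single cluster, Scx at E12.5 was at 18.2 CPM in the muscle-like cluster led by Msc and Pax7. It was at 7.04 CPM (4 UMIs) in the one led by Myog and 2.92 CPM (1 UMI) in the one led by Myh3, and the intervals of these 3 overlap. The E15.5 muscle-like clusters were at 17.0 to 22.3 CPM.

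Tnc, too, was above the endothelial-like level in muscle-like cells as a class, at 37.1 CPM against 3.20 CPM at E12.5 and 35.2 CPM against 5.03 CPM at E15.5 (log2 ratio 2.81, 1.90 to 3.89). The muscle-like clusters were not alike. At E15.5 Tnc was at 39.9 and 44.6 CPM in the clusters led by Msc and Pax7. It was at 3.57 CPM (4 UMIs, 0.97 to 9.15) in the one led by Mylpf and Myl1. At E12.5 it was at 49.3 CPM in the cluster led by Msc and Pax7, 19.4 CPM in that led by Myog and 11.7 CPM in that led by Myh3. The log2 ratio of the muscle-like Tnc levels between the ages was -0.08, with an interval (-0.44 to 0.29) that includes 0. Schwann-like cells, the glia of peripheral nerves, had Tnc at 131 CPM (128 UMIs in 84 cells) and Thbs2 at 66.7 CPM at E15.5. The Schwann-like Tnc level at E15.5 was close to the 130 CPM of the tenocyte-like cells.

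Mural-like cells, the pericytes and smooth muscle of vessel walls, had the reverse pattern to muscle: Tnmd with hardly any Scx. At E15.5 Tnmd was at 107 CPM, from 117 UMIs in 37 of 72 cells, and Scx at 4.59 CPM. All 5 Scx UMIs were in 1 cell, and without that cell Tnmd was at 100.2 CPM (82.1 to 121). The 3 cells with the most Tnmd held 26.5% of its UMIs. Tenocyte markers in mural-like cells summed to 42.3 CPM with 6 of 10 at 0, against 1244 CPM in tenocyte-like cells. Scx UMIs per Tnmd UMI were 0.0427 in mural-like cells and 0.309 in tenocyte-like cells. These cells also had Thbs1 at 88.2 CPM and Thbs2 at 90.0 CPM. The Tnmd level depended on the clustering, which gave 63.4 to 111 CPM. At E12.5 no mural-like cluster was found.

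Immune-like cells carried Thbs1, a gene known from platelets and macrophages. At E12.5 Thbs1 was at 642 CPM in 50 immune-like cells, but 73 of the 163 UMIs came from 1 cell, and without it the level was 374 CPM (301 to 460). This cluster was led by Pf4, Plek and Apoe. The platelet gene Ppbp and the macrophage gene Mrc1 were both among its leading genes. At E15.5 the level was 214 CPM in 73 cells. It was 480 CPM in the 32 cells of a cluster led by S100a9 and S100a8, with Lyz2, Cd74 and H2-Aa also among its leading genes. In the other immune-like cluster of that age, 41 cells led by the macrophage genes C1qb, Pf4 and C1qc, Thbs1 was at 56.5 CPM from 34 UMIs, below the 182 CPM of the mesenchymal cells. Mkx and Thbs4 were near or at 0 in endothelial-like, immune-like and Schwann-like cells at both ages, with at most 2 UMIs in a class.

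**Figure D4:**
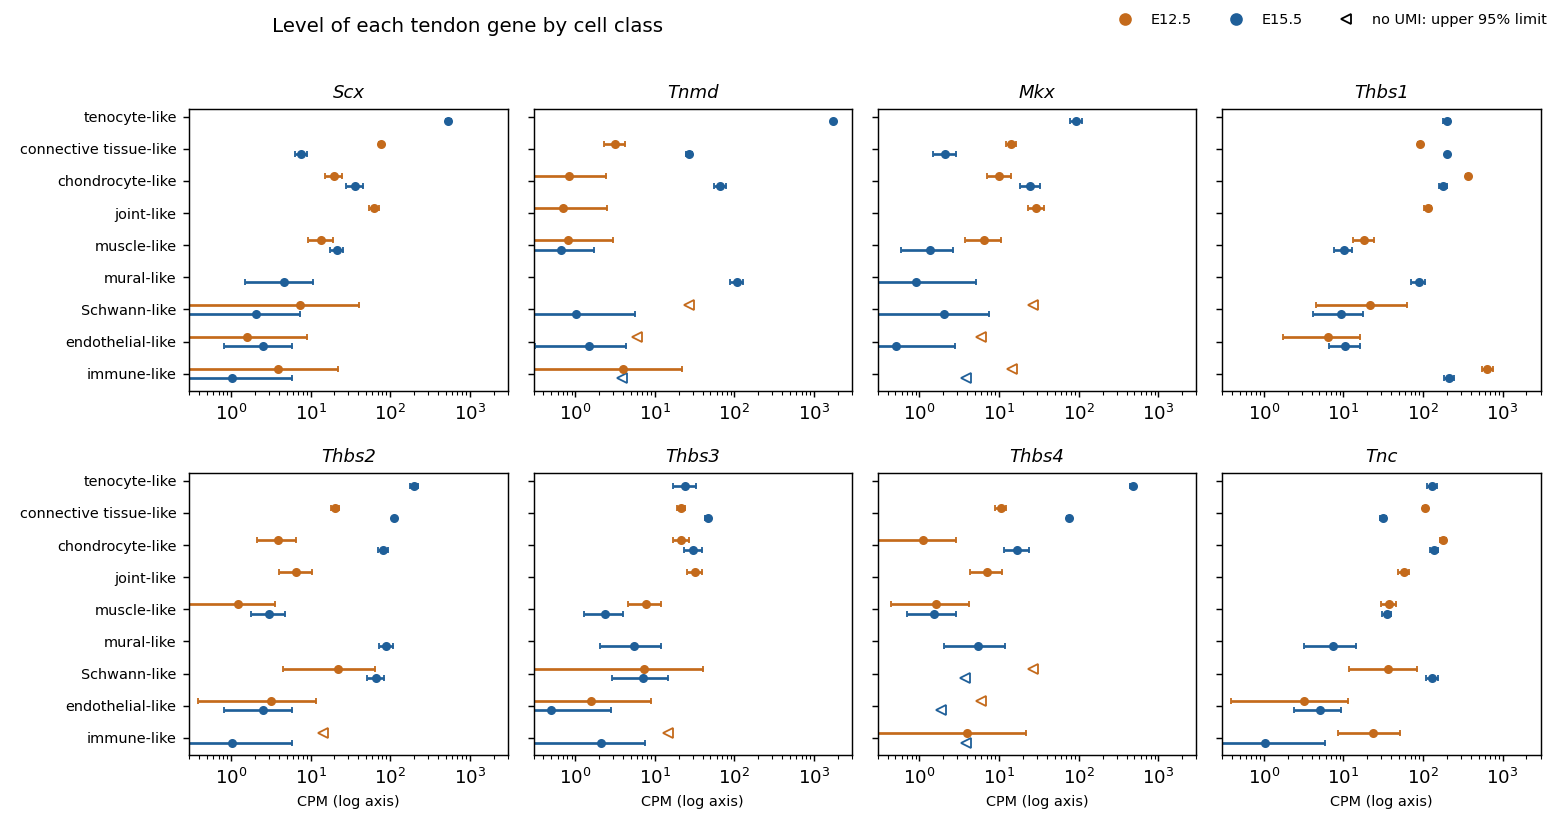
Level of each tendon gene by cell class at E12.5 (orange) and E15.5 (blue), in CPM on a log axis with 95% counting intervals; open triangles are upper limits where no UMI was read, and a class without a point was not found at that age. Scx in muscle-like cells lies above the endothelial-like level at both ages, Tnmd is raised in mural-like cells, and Thbs1 in immune-like cells.

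The surrounding pathways were read from gene lists in the mesenchymal cells, where 8.72% of all tested genes were at least 2-fold higher at E15.5 and 18.9% lower. Tendon matrix genes stood out by count: 15 of 21 tested were at least 2-fold higher and 1 was lower, with a median log2 ratio of 1.80. Those with the largest ratios were Dcn (4.34), Col14a1 (3.75), Col6a1 (3.14), Aspn (3.09), Col1a1 (2.89) and Col6a2 (2.74), which encode collagens and small proteoglycans, and Chad was lower (-1.50). Between the tenocyte-like and the other mesenchymal cells of E15.5 the list was divided: of 20 tested genes, 3 were at least 2-fold higher in the tenocyte-like cells and 5 were lower, against 2.36% and 11.4% of all tested genes, with a median log2 ratio of 0.15. The higher ones were Fmod (3.38), Kera (2.25) and Col11a1 (1.25), and the lower ones Comp (-3.95), Lum (-2.00), Col6a1 (-1.07), Col6a2 (-1.05) and Dcn (-1.03), named here after their values were seen. Col1a1 (0.88) and Aspn (0.38) differed by less than 2-fold. Of the other thrombospondins and tenascins, Tnxb was at 6 UMIs at E12.5 against 1328 at E15.5 (log2 ratio 7.65, 6.53 to 9.10) and Tnn at 15 and 92 UMIs (2.48). Tnxb was 3 UMIs of 1328 in tenocyte-like cells, a log2 ratio of -4.71 over the other mesenchymal cells, and Comp, the thrombospondin of cartilage and adult tendon, had 1 UMI there and 262 in the others.

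TGF-beta signalling promotes tendon fate. Of 14 genes of TGF-beta and BMP signalling, none was at least 2-fold higher and 2 were lower: the receptor Tgfbr1 (-1.62) and the matrix protein Tgfbi (-1.16). Of 8 tested FGF genes, 1 was higher (the inhibitor Spry1, 1.95) and 4 were lower: the receptor Fgfr2 (-2.20), the ligand Fgf8 (-1.67) and the FGF response genes Etv4 (-1.26) and Dusp6 (-1.21). In the tenocyte-like cells, 18 of the 27 Fgf8 UMIs in E15.5 mesenchyme were in these 145 cells, 11.9 CPM against 0.353 CPM, a log2 ratio of 5.08 (3.85 to 6.42). Etv4 was higher there by 2.93 (2.40 to 3.45) and Dusp6 by 1.05 on the log2 scale, while Fgfr2 was lower by a log2 ratio of -2.80. Of 7 FGF genes tested in this contrast, 2 were at least 2-fold higher and 1 was lower, against 2.36% and 11.4% of all tested genes. Their median log2 ratio was 0.23. Etv5 (0.23, -0.28 to 0.70), Spry2 (0.53), Spry1 (-0.23) and Fgfr1 (-0.23) differed by less than 2-fold. Fgf8, with few UMIs, was below the minimum for the count of genes in this contrast.

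Of 9 other tendon transcription factor genes, none was at least 2-fold higher at E15.5, and those lower included Foxc2 (-2.53), Sox9 (-2.44) and Eya1 (-1.52). Of 10 tested receptor genes for thrombospondins and tenascins, 2 were higher, Itgb3 (2.31) and Cd47 (1.09), and 2 were lower, Itgb8 (-2.32) and the tenascin receptor gene Itga9 (-1.53). In tenocyte-like cells Eya2 (log2 ratio 2.48) and Cd36, a thrombospondin receptor (30 UMIs, 3.13), were higher than in the other mesenchymal cells; these 2 were singled out after their values were seen.

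Genes with patterns most like each tendon gene were named by the smaller of the libraries' Pearson r over the 25 E12.5 clusters and the 27 E15.5 clusters, on log2(CPM + 10), among 11668 genes, and the 8 tendon genes themselves were left out of the ranking. The clusters of a library share its depth and preparation, and r is given as a description. Outside the 8, Mkx was most like Pianp (0.812), the tendon proteoglycan gene Fmod (0.758) and Adamtsl3 (0.731). Scx was most like Ctf1 (0.637), Wfdc2 (0.624) and Cacna2d2 (0.624), and Tnmd most like Meox2 (0.574), Angpt1 (0.548) and Ogn (0.535). Thbs2 was most like the fibrillar collagen gene Col5a2 (0.861), Thbs4 like Cys1 (0.773), Thbs1 like Clint1 (0.819), Thbs3 like Stxbp6 (0.843) and Tnc like Ahi1 (0.758). Among the 8 genes, r between Scx and Mkx was 0.755 at E12.5 against 0.819 at E15.5, so that by the smaller r Mkx was more like Scx than any of the 3 genes ranked for Scx. Between Scx and Tnmd r was 0.146 and 0.740, and the member most like Tnmd was Thbs2 (0.543). Tnmd had only 78 UMIs in all kept E12.5 cells, below the 100 per library asked of the ranked genes. Every E12.5 r of Tnmd, and each likeness set by it, thus rests on few molecules.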

How the data were processed

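Single cells of 2 libraries, 1 per age, were analysed. The deposited files hold raw UMI counts per gene and barcode, and Cell Ranger 4.0.0 made them per the file headers; mm10 and Seurat 4.3.0 are named in the submitters' processing notes, and the cell-calling settings are not given in the sources used here. Cells with at least 500 genes and under 10% mitochondrial UMIs were kept. Doublets were scored against simulated doublets and the highest were removed at 0.8% per 1000 barcodes (1270 and 190 cells). Each library was clustered alone (2000 variable genes, 30 components, 15 neighbours, Leiden resolution 1, seed 0), leaving out the 8 tendon genes, 25 cell cycle genes and 5 sex-linked genes; of the cell cycle genes, 0 were at least 2-fold higher at E15.5 and 6 were lower. A cluster took a name where at least 3 markers were at least 2-fold higher and found in at least 10% of its cells, with 1 or more in its top 10; this rule was set after clusters were seen. Clusters with a median under 1/3 of their library's were left out. The classes and lists were written with earlier results of these data known, as were the 8 genes. Gene names in the text were the 8 genes, list genes at least 2-fold apart between ages (at most 6 a list), and the 3 most alike genes; not every list gene or leading gene of a cluster is reported here. Intervals are exact Poisson (levels), exact conditional binomial (ratios), Clopper-Pearson (shares) and Newcombe (differences), at 95%. Genes with at least 100 UMIs over both sides of a comparison entered counts of genes. The ratio calculation was tested on simulated data. Python 3.11.15, scipy 1.17.1 and leidenalg 0.10.2 were used. Alternatives in cell filter, doublets, clustering, scaling and thinning were computed.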

Additional observations from a re-analysis of the deposited data

How the results depend on the processing

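The count of 3 tendon genes at least 2-fold higher at E15.5 was kept under 11 of 12 alternatives and was 4 when scaled to the median gene. The count of lower genes moved from 1 to 2 at resolution 2.0, where Scx reached a log2 ratio of -1.03, and to 0 when scaled to the median gene. The E15.5 tenocyte-like share was 2.45% with all deposited barcodes and 3.09% at resolution 2.0. The Scx and Tnmd co-detection ratio at E12.5 was 0.748 when thinned to 4000 UMIs, on 808 cells; at E15.5 it was 4.54 when thinned to 4000 UMIs and 3.61 when not thinned. The cause was not tested. The Thbs1 ratio changed sign over all kept cells (-0.08). Further thinning draws, another seed, clustering with the tendon genes, and the values without single cells were chosen after seeing the data. Thinning at 2000 UMIs left out 3971 mesenchymal cells at E12.5 against 8 at E15.5, so that the E12.5 shares describe its deeper cells. No paired analysis was possible because each age had 1 library.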
